A study of Homo sapiens with 30 samples.

Results

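Aminoacyl-tRNA synthetases, the enzymes that load each transfer RNA with its amino acid, were followed in A375 cells treated with MLN4924 or with solvent. The family was taken as 35 listed genes, 19 for enzymes of the cytosol and 16 for enzymes of the mitochondrion, and a gene was measured through the probe sets annotated to its symbol alone. That left 32 of the 35 genes (17 cytosolic and 15 mitochondrial), with 67 probe sets of the 54675 on the array and 32 of the 19775 genes tested. MARS1, QARS1 and TARS2 have probe sets that also name a second gene and were not analysed here. A375 is an established line of human melanoma cells that carries mutant BRAF. MLN4924 (pevonedistat) blocks the NEDD8-activating enzyme, so that cullin-RING ubiquitin ligases are not switched on. The 10 groups were cells given 0.065% DMSO or 650 nM MLN4924 for 1, 2, 4, 8 or 24 h, with 3 Affymetrix HG-U133 Plus 2.0 arrays in each, and all groups came from the same unmodified line. Nothing in the labels says whether replicate arrays came from separate cultures, so p-values measure the spread between these arrays, which may be technical. They describe 1 line at 1 dose.

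Each synthetase joins an amino acid to its transfer RNA in an ATP-driven step, and the products feed the ribosome. Nuclear genes encode both sets: most cytosolic enzymes have their own gene, most mitochondrial enzymes another, and KARS1 and GARS1 serve both places from 1 gene each. EPRS1 carries glutamyl and prolyl activities in a single chain, FARSA and FARSB are the subunits of cytosolic phenylalanyl-tRNA synthetase, and several cytosolic enzymes sit in a multisynthetase complex held together by AIMP scaffold proteins. When transfer RNAs lack amino acids or other stress phosphorylates eIF2, the transcription factor ATF4 is made and, with C/EBP partners, binds composite elements with the core TGATGNAA. Many genes of amino acid supply, cytosolic synthetases among them, are known ATF4 targets.

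The promoters of the family are shown because the cytosolic genes moved together at 24 h and because this element is the known entry point of ATF4. RefSeq windows (GRCh38.p14) from 250 bases before to 50 bases after a gene's start were searched for TGATGNAA on both strands. Windows were found for 14 of the 17 measured cytosolic genes (not for LARS1, VARS1 or YARS1) and 13 of the 15 mitochondrial genes (not for AARS2 or VARS2). The motif was in the windows of 6 of the 14 cytosolic genes (42.9%) and 1 of the 13 mitochondrial genes (7.69%), against 4.46% of all 27305 genes with a window and 3.61% of the 15384 such genes on the array. The stretches of 100 bases around it are given 5′ to 3′ along the strand of the gene, with the match in capitals, where TTNCATCA is the same motif read from the other strand. The alanyl gene (chr16:70289640-70289739, minus strand), the cysteinyl gene (chr11:3057418-3057517, minus strand) and the glycyl gene (chr7:30594778-30594877, plus strand) read as follows.
AARS1: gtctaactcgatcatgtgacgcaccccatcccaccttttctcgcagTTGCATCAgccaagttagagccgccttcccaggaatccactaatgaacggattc
CARS1: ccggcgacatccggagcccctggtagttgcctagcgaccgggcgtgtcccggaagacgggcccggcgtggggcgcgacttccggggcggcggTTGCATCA
GARS1: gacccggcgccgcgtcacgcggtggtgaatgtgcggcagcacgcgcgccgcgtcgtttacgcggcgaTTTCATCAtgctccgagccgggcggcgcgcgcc
The isoleucyl gene (chr9:92293698-92293797, minus strand), the asparaginyl gene (chr18:57621815-57621914, minus strand) and the threonyl gene (chr5:33440875-33440974, plus strand) are next, and the mitochondrial tyrosyl gene (chr12:32756041-32756140, minus strand), the exception among the mitochondrial enzymes, is last.
IARS1: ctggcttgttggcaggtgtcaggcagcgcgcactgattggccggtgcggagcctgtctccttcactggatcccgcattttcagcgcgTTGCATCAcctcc
NARS1: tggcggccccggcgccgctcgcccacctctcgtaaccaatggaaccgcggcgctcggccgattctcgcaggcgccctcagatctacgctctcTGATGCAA
TARS1: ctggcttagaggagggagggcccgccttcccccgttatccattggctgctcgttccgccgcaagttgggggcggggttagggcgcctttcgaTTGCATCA
YARS2: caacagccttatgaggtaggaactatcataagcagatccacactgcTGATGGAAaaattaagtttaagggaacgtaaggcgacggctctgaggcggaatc
In 5 of the 6 cytosolic genes the match was the stricter TGATGCAA or its complement, which 1.08% of all genes with a window carried and no measured mitochondrial member did. In GARS1 it ended 26 bases before the start, in IARS1 6 bases before it, and in AARS1 180 bases before it. It spanned the start in CARS1 and lay just after it in TARS1 and NARS1. A match is a string of letters in this window, not evidence of binding, and a gene without one may carry the element elsewhere. HARS1 and HARS2, for the cytosolic and mitochondrial histidyl enzymes, are a different case: they start on opposite strands of chromosome 5 with 84 bases between their starts (chr5:140691371-140691454, shown on the plus strand), and this stretch has no match.
HARS1-HARS2: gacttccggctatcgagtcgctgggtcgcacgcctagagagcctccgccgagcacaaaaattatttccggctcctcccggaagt

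Signals are linear probe set intensities, quantile-normalized between arrays. Changes are differences of log2(signal + 32), which understate the change of dim genes, and folds are ratios on that scale. A gene was called changed at an adjusted p under 0.05 (limma, Benjamini-Hochberg over all 19775 genes in each comparison). Array medians as deposited ran from 32.6 to 44, and the ratio of ACTB 3′ to 5′ probe signals, which rises as RNA degrades, from 1.14 to 1.74, highest on replicates 1 and 2 of DMSO at 2 h. No synthetase was called at 2 h, with those arrays or with both left out. Of 12 melanoma markers 11 were measured, of which 6 had a mean signal above 100 (SOX10 729), while PMEL, MLANA and TYRP1 were at or below the array median. The summed melanoma markers were lower after 24 h of MLN4924 (1690.0 to 1759 across arrays) than in DMSO (3555 to 3683), as were 5 fibroblast markers (252.8 to 284.6 against 386.6 to 430.3, of which 1, COL1A1, had a mean above 100). Of the 6 brighter melanoma markers, S100B (-3.49), EDNRB (-1.47), SOX10 (-1.08) and S100A1 (-0.67) were called lower at 24 h. TFAP2A was called higher (0.60) and MITF was not called (-0.057). In DMSO from 1 to 24 h S100B (1.87), EDNRB (1.07), S100A1 (0.56) and MITF (0.38) were called higher and TFAP2A lower (-0.32). The sums of epithelial (247.3 to 277.9 against 217.7 to 250), blood (138.2 to 219.5 against 193.8 to 222.9) and endothelial markers (97.8 to 155.0 against 127.5 to 133.5) overlapped between the groups. The part of these marker shifts in the synthetase results was not tested.

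After 24 h of MLN4924 the cytosolic synthetases were higher almost throughout. In comparisons at 1 time, rose and fell stand for MLN4924 against DMSO at that time, not for a course in time. Of 17 measured genes, 14 rose, none fell, and the other 3 (LARS1, RARS1 and WARS1) did not pass the test. The median log2 change of the 17 was 0.45, against 0.0027 over all genes. Of all genes, 34.0% were called at 24 h, 15.9% as higher and 18.1% as lower, and among the 6446 genes with a mean signal in the range of these 17, 30.9% were called higher. All 3 MLN4924 arrays lay above all 3 DMSO arrays for 15 of the 17, as they did for 21.6% of all genes. The mitochondrial enzymes did not share this pattern: 4 of 15 rose, 1 fell and 10 did not pass, with a median of 0.074. GARS1 and KARS1, which serve both places and were both called higher, were counted as cytosolic only, here and in all comparisons of the classes. In bulk RNA, fewer cells of a type and less RNA per cell cannot be told apart, and a shift common to all genes cannot be seen on these arrays.

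**Figure D1:**
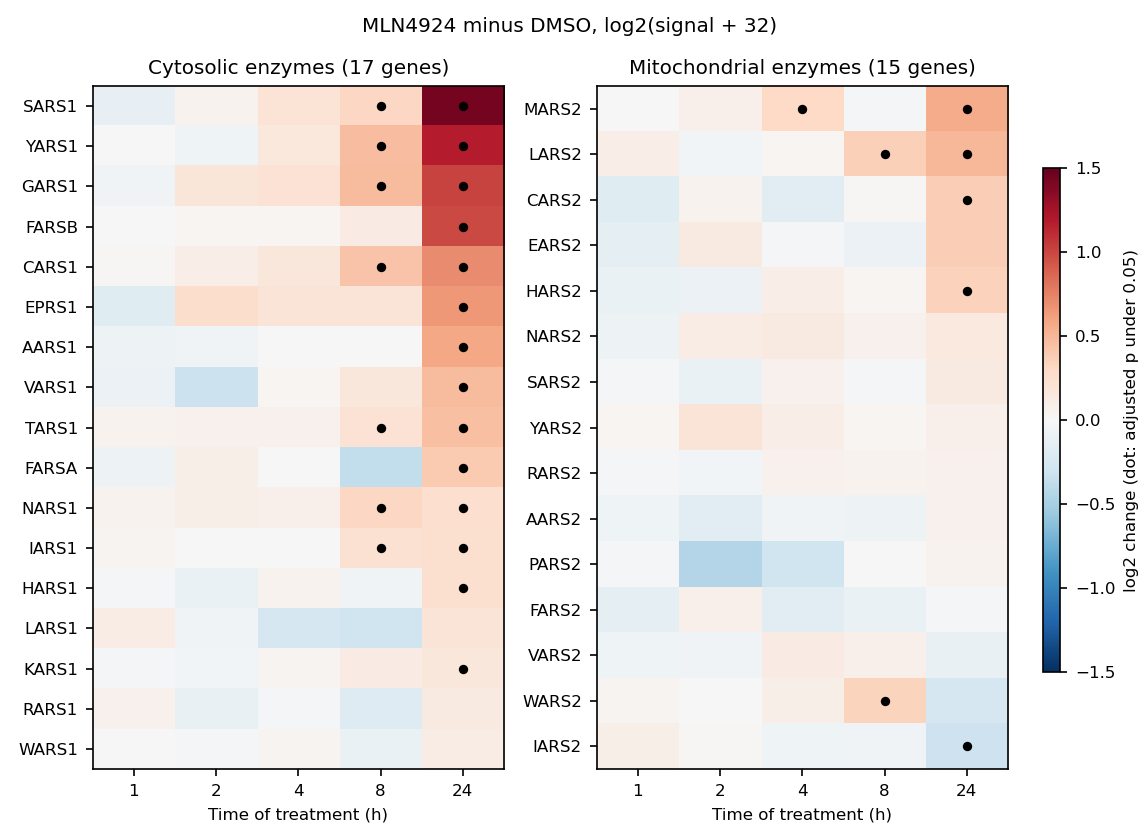
Log2 change (MLN4924 minus DMSO, log2(signal + 32)) of each measured gene (rows, ordered by the 24 h change) at each time (columns, h), cytosolic enzymes left and mitochondrial right, colour scale from -1.5 to 1.5. Dots mark adjusted p under 0.05: 14 of 17 cytosolic genes have a dot at 24 h and 7 at 8 h, against 5 and 2 of 15 mitochondrial genes.

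The largest change was that of SARS1, the cytosolic seryl-tRNA synthetase. Its signals at 24 h were 888, 828 and 853 on the DMSO arrays and 2303, 2298 and 2506 on the MLN4924 arrays, a rise of 2.7-fold (log2 change 1.43, SE 0.073, adjusted p = 6.29e-14). The groups were far apart, and the DMSO signals stayed between 815 and 986 over all 5 times. YARS1, the tyrosyl enzyme, went from 1293, 1324 and 1393 in DMSO to 3004, 3122 and 3085 in MLN4924 (2.27-fold; log2 change 1.18, SE 0.064, adjusted p = 2.06e-13). GARS1, which charges glycine transfer RNA in both cytosol and mitochondria, had 1908, 1866 and 1819 in DMSO and 3606, 3695 and 4065 in MLN4924 (2.01-fold; log2 change 1.01, SE 0.07, adjusted p = 2.48e-11). The lowest treated array was above the highest control array for both genes, and the control arrays at 24 h were the lowest of the whole DMSO course for both. FARSB, the beta subunit of phenylalanyl-tRNA synthetase, rose from 712, 672 and 703 to 1447, 1352 and 1426 (1.98-fold; log2 change 0.98, SE 0.071, adjusted p = 4.10e-11). That value rests on probe sets that may hybridise to more than 1 transcript: without them the remaining probe set, with a mean signal of 25.4, gave 0.16 (adjusted p = 0.291).

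**Figure D2:**
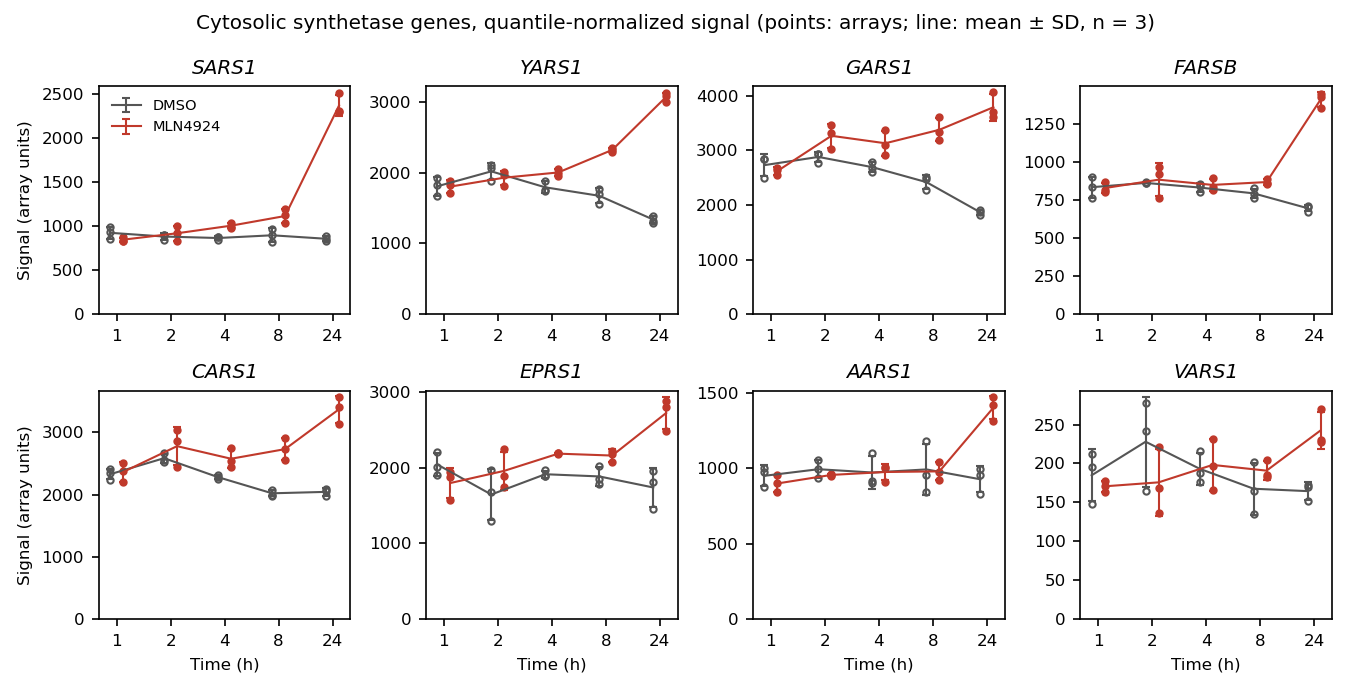
Quantile-normalized signal (array units, linear axis from 0) over time (h) of the 8 cytosolic genes with the largest called changes; points are arrays, lines join means, bars are SD (n = 3). At 24 h the MLN4924 points of all 8 genes lie above the DMSO points, and in GARS1 and YARS1 the DMSO line also falls.

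Smaller rises were measured for the next 4 enzymes. CARS1, the cysteinyl enzyme, had 1976, 2063 and 2094 in DMSO and 3139, 3412 and 3563 in MLN4924 at 24 h (1.64-fold; log2 change 0.71, SE 0.072, adjusted p = 1.81e-08). EPRS1, the glutamyl-prolyl enzyme of the multisynthetase complex, had 1450.4, 1815 and 1954 and 2486, 2811 and 2880.0 (1.56-fold; log2 change 0.65, SE 0.12, adjusted p = 1.32e-04). For AARS1, the alanyl enzyme, the signals were 830.1, 993 and 954 in DMSO and 1419, 1314 and 1467 in MLN4924 (1.5-fold; log2 change 0.58, SE 0.10, adjusted p = 3.33e-05). None of the 3 overlapped between groups. VARS1, the valyl enzyme and the dimmest measured cytosolic member, had 170.0, 152 and 172 and 230.4, 269.8 and 227 (1.4-fold; log2 change 0.48, SE 0.16, adjusted p = 0.0193). Its arrays did not overlap at 24 h, but the call was lost without replicate 2 of either group (adjusted p = 0.0724 and 0.0858), with the mean of its probe sets (0.309) and with adjustment over the 5 times together (0.0546).

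The other 6 cytosolic genes called at 24 h changed by 0.17 to 0.45 on the log2 scale: TARS1 (threonyl), FARSA (the alpha subunit of the phenylalanyl enzyme), NARS1 (asparaginyl), IARS1 (isoleucyl), HARS1 (histidyl) and KARS1 (lysyl). TARS1 changed by 0.45 (adjusted p = 4.23e-07) and FARSA by 0.40 (adjusted p = 0.0267), so the measured change of FARSA was smaller than that of its partner FARSB, a difference that was not tested. The FARSA call was lost without DMSO replicate 1 or 2 or MLN4924 replicate 1 or 3 (adjusted p from 0.0655 to 0.125) and with adjustment over the 5 times together (0.0731), over a range of 1.87e-06 to 0.125 in 15 alternatives. HARS1 lost its call without replicate 1 of either group (0.0777 and 0.0758) and with that joint adjustment (0.0577), and KARS1 lost it when only the arrays compared were fitted (0.075). The genes that did not pass had intervals that reach well above 0: the 95% interval of the log2 change was -0.027 to 0.42 for LARS1 (leucyl), -0.18 to 0.44 for RARS1 (arginyl) and -0.038 to 0.27 for WARS1 (tryptophanyl). The spread behind each interval is taken over all 30 arrays. For RARS1 it takes in the MLN4924 arrays at 2 h, which read 3904, 3725 and 1978. LARS1, although not called, had all treated arrays above the controls at 24 h. KARS1 had the highest mean signal of the family's chosen probe sets over the 30 arrays (7964) and a change of 0.17 (adjusted p = 0.00731).

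By subgroup, the cytosolic enzymes outside the multisynthetase complex were called in 11 of 12 cases (median log2 change 0.53), and those in it in 3 of 5 measured of 7 listed (EPRS1, IARS1 and KARS1; median 0.20). The synthetases fall into a pair of unrelated structural classes. All 9 cytosolic class II genes were called (median 0.45), and 5 of 8 class I genes (median 0.36), while all 3 cytosolic genes that did not pass, LARS1, RARS1 and WARS1, are class I. EPRS1, 1 of these 5, was counted as class I for its glutamyl activity, although its prolyl activity is of class II. Among mitochondrial genes, 3 rose and 1 fell of 9 in class I, and 1 rose of 6 in class II. These differences between subgroups were not tested. Of the 14 cytosolic genes with a promoter window, the 6 with TGATGNAA were all called higher at 24 h (median 0.52, range 0.25 to 1.01), and so were 6 of the 8 without it (median 0.32, range 0.11 to 1.43). SARS1, with the largest change of all, had no match in its window.

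In the mitochondrial set at 24 h the 4 genes that rose were MARS2, LARS2, CARS2 and HARS2. MARS2, the mitochondrial methionyl enzyme, had signals of 92.4, 91.7 and 68.5 in DMSO and 131, 129.8 and 155 in MLN4924 (1.47-fold; log2 change 0.56, SE 0.084, adjusted p = 6.92e-06). LARS2, the leucyl enzyme, had 286, 270.2 and 272 and 403, 423 and 379.9 (1.41-fold; log2 change 0.49, SE 0.064, adjusted p = 8.82e-07). Both sets of arrays were clear of each other. CARS2, the cysteinyl enzyme, rose from 314, 334 and 317 to 396, 459 and 422 (1.29-fold; log2 change 0.37, SE 0.091, adjusted p = 0.00219). With the mean of its probe sets the CARS2 change was 0.12 and not called (adjusted p = 0.221). HARS2, the histidyl enzyme, rose from 502, 492 and 479 to 611, 642 and 637 (1.27-fold; log2 change 0.34, SE 0.076, adjusted p = 8.13e-04). HARS1, its divergent neighbour, also rose at 24 h (log2 change 0.24), as 1 of the 14 cytosolic genes of 17 called higher. At 8 h HARS1 was at -0.058 and HARS2 at 0.032, neither called. A part of the short stretch printed above in these changes was not tested. IARS2, the isoleucyl enzyme and the brightest mitochondrial member, was the gene called lower. It had 1521, 1519 and 1487 in DMSO and 1302, 1262 and 1088 in MLN4924 (log2 change -0.31, adjusted p = 2.12e-04). With each array centred on its median, where the median of all genes moved to 0.051, IARS2 was at -0.16 (adjusted p = 0.0855) and no longer called. From 1 to 24 h IARS2 rose in DMSO (0.27, called) and moved by -0.13 under MLN4924 (not called).

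The other 10 mitochondrial genes did not pass at 24 h, with log2 changes from -0.25 to 0.37. EARS2 (glutamyl) was closest on the high side (0.37, adjusted p = 0.0594, no overlap between groups) and WARS2 (tryptophanyl) on the low side (-0.25, adjusted p = 0.0751). WARS2 read 227, 201 and 217 in DMSO and 139.6, 226 and 169.9 in MLN4924 at 24 h, where the treated arrays differed among themselves more than the controls. For the dimmest member, PARS2 (prolyl, mean signal 54.4), the 95% interval was -0.33 to 0.43, wide enough to hold a change as large as that of CARS2. The mitochondrial probe sets are dimmer as a set: their mean signals ran from 54.4 to 1330 (median 275), against 192 to 7960 (median 1980) for the cytosolic genes. In the signal range of the mitochondrial members, 25.5% of genes were called higher at 24 h, and 4 of these 15 members were.

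Averaged over its genes, each class gave 1 value per array. At 24 h the cytosolic mean of log2(signal + 32) was 10.53 to 10.61 on the DMSO arrays and 11.11 to 11.13 on the MLN4924 arrays. The mitochondrial mean was 8.19 to 8.26 and 8.31 to 8.41. Both classes were therefore above their controls on every array, the cytosolic one by more. The difference between the class means within an array, cytosolic minus mitochondrial, was 2.34 on average in DMSO (2.28 to 2.42) and 2.75 in MLN4924 (2.70 to 2.80) at 24 h. The cytosolic means overlapped at 1 and 2 h and lay narrowly apart at 4 h (10.69 to 10.74 in DMSO and 10.75 to 10.78 in MLN4924). This gap was not tested, and no cytosolic gene was called at 4 h. Treated arrays lay all above the controls then for 1992 of all 19775 genes. At 8 h the cytosolic means stood at 10.62 to 10.71 and 10.77 to 10.82, when the mitochondrial means (8.25 to 8.26 and 8.25 to 8.33) still overlapped. The difference between the classes at 8 h was 2.42 in DMSO (2.36 to 2.46) and 2.50 in MLN4924 (2.44 to 2.57), and the arrays overlapped.

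**Figure D3:**
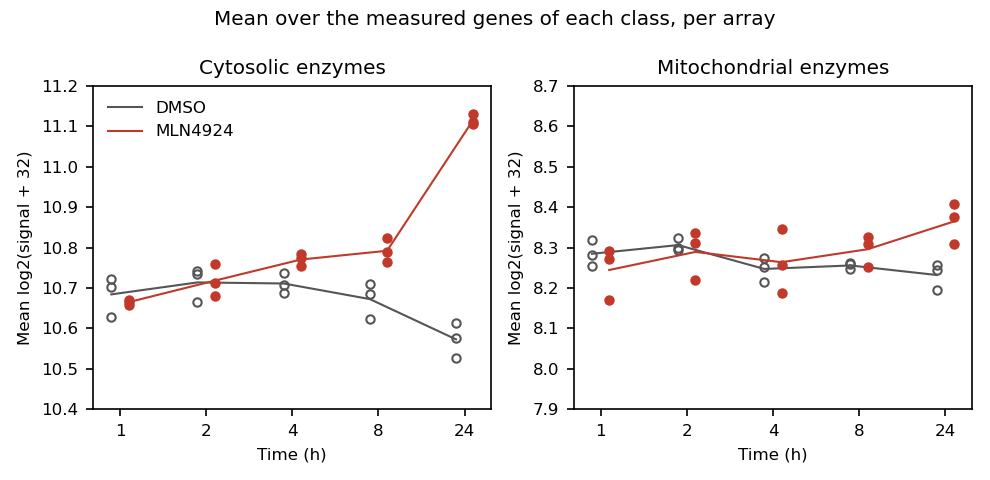
Mean log2(signal + 32) over the 17 cytosolic (left) and 15 mitochondrial genes (right) on each array (points) against time (h), with lines through the group means; both axes span 0.8 log2 units and start above 0. The cytosolic DMSO and MLN4924 points lie narrowly apart at 4 h (not tested) and are furthest apart at 24 h (10.53 to 10.61 against 11.11 to 11.13). The mitochondrial points move less (8.19 to 8.26 against 8.31 to 8.41).

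Cytosolic genes were compared with the mitochondrial gene for the same amino acid in 13 pairs matched by symbol (FARS2 standing against both FARSA and FARSB). EPRS1 was left out of these pairs because its symbol matches no mitochondrial gene, although EARS2 and PARS2 serve its amino acids. At 24 h EPRS1 changed by 0.65, EARS2 by 0.37 and PARS2 by 0.050, the last 2 not called. At 24 h the cytosolic change was the larger in 11 of 13. In 7 pairs only the cytosolic gene rose: SARS1, YARS1, FARSB, FARSA, AARS1, VARS1 and NARS1 against SARS2, YARS2, FARS2, AARS2, VARS2 and NARS2. The widest gap was that of SARS1 (1.43) and SARS2 (0.13, 95% interval -0.091 to 0.36), followed by YARS1 (1.18) and YARS2 (0.074, -0.31 to 0.46). For FARS2 the interval, -0.25 to 0.22, ends below the change of FARSB. CARS1 with CARS2 and HARS1 with HARS2 rose in both places, CARS2 not with the mean of its probe sets (0.12), and the isoleucyl pair moved in opposite directions, IARS1 by 0.25 and IARS2 by -0.31. The mitochondrial change was the larger in the histidyl and the leucyl pair, and in the latter LARS2 was called (0.49) and LARS1 not (0.20), although 1 of the other LARS1 probe sets was (0.43). In the arginyl and tryptophanyl pairs neither gene passed. The differences within pairs were not tested.

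**Figure D4:**
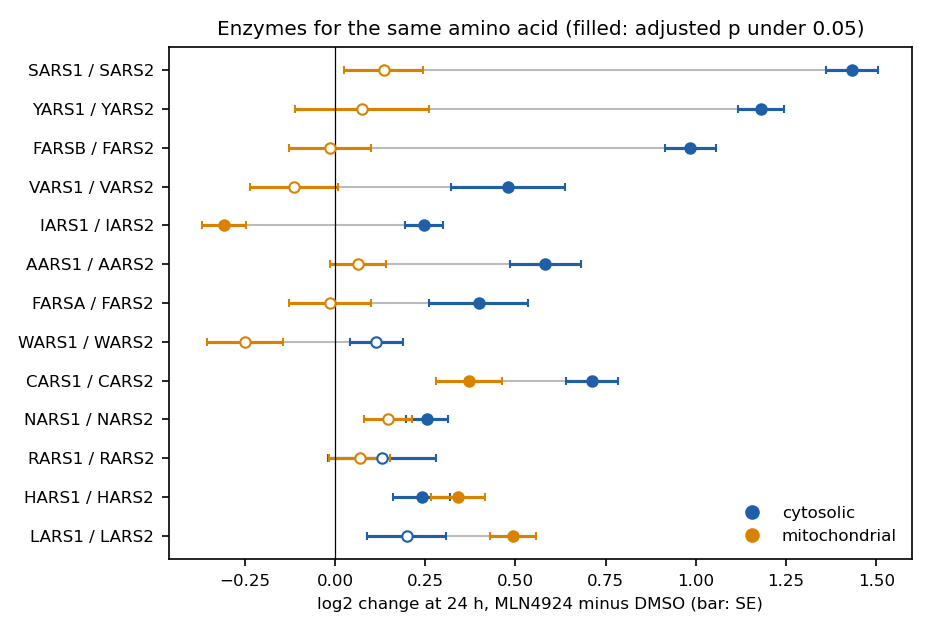
Log2 change at 24 h (MLN4924 minus DMSO, x axis; bars are the SE from the fit) of the cytosolic and mitochondrial gene for the same amino acid, 13 pairs matched by symbol (EPRS1 left out) and ordered by the difference; filled points have an adjusted p under 0.05. The cytosolic point lies to the right in 11 pairs, and the histidyl and leucyl pairs are the other way round.

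At 8 h fewer members were called than at 24 h, 7 cytosolic and 2 mitochondrial. CARS1, GARS1, IARS1, NARS1, SARS1, TARS1 and YARS1 rose, 7 of 17 with a median log2 change of 0.17 over the class (all genes 0.0037), against 8.37% of all genes called higher and 6.81% lower at 8 h (15.2% in either direction, and 55.1% of the calls higher, a share of 77.7% with each array centred on its median) and 17.0% of genes in the same signal range. GARS1 had 2511, 2269.7 and 2472 in DMSO and 3329.5, 3602 and 3197 in MLN4924 (log2 change 0.48, SE 0.07, adjusted p = 2.86e-05), and YARS1 had 1694, 1561 and 1764 and 2345, 2323 and 2293 (log2 change 0.47, SE 0.064, adjusted p = 9.63e-06). CARS1 had 1985, 1999 and 2079 and 2549, 2914 and 2729.5 (log2 change 0.43, SE 0.072, adjusted p = 1.53e-04). All 3 were clear of their controls, with the treated arrays already 1.34 to 1.39 times the controls in folds of signal + 32. Treated arrays at 8 h lay all above the controls for 10 of the 17 cytosolic genes and all below for 2. Of all 19775 genes, 2982 lay all above and 2558 all below. NARS1 changed by 0.32 at 8 h and 0.26 at 24 h, and IARS1 by 0.23 and 0.25, so these were near their 24 h size at 8 h. SARS1, with the largest change at 24 h, was at 0.31 (adjusted p = 0.0043). When only the arrays compared were fitted, 3 of the 7 calls were kept, and IARS1, NARS1, SARS1 and TARS1 lost theirs (adjusted p = 0.12, 0.0923, 0.114 and 0.16). TARS1 also lost its call without replicate 1 of DMSO (0.0525) or of MLN4924 (0.0699) and with the mean of its probe sets (0.162).

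Some cytosolic genes were measured lower at 8 h without passing the test: FARSA at -0.37 (adjusted p = 0.0758) and LARS1 at -0.30 (adjusted p = 0.0638). Of the mitochondrial enzymes, LARS2 and WARS2 rose at 8 h, 2 of 15, where 14.2% of genes in their signal range were called higher. LARS2 had 230.2, 282 and 253 in DMSO and 326, 354 and 324 in MLN4924 (log2 change 0.36, SE 0.064, adjusted p = 3.00e-04), and WARS2 had 201, 206 and 204 and 261, 275 and 260.2 (log2 change 0.34, SE 0.11, adjusted p = 0.0316). The WARS2 arrays did not overlap at 8 h, but its call was lost when any of the 6 arrays was left out (adjusted p from 0.0621 to 0.101) and with the mean of its probe sets (0.156). That of LARS2 was lost when only the arrays compared were fitted (0.0675). The leucyl pair was thus split at 8 h as at 24 h, with LARS2 called and LARS1 not.

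Before 8 h little was detectable in the family. At 1 h no synthetase was called and none had an unadjusted p under 0.05. Of all 19775 genes, 1 (0.00506%) was called and 968 had such a p. At 2 h none was called by limma, against 0.551% of all genes. An unadjusted p under 0.05 was found for 3 of 32, against 2017 of all 19775 genes. The 3 were GARS1 (0.18) and EPRS1 (0.26) on the high side and PARS2 (-0.44) on the low side. At 4 h the call rate of all genes was 3.39% (1.83% higher), with 53.8% of the calls higher, or 67.7% with each array centred on its median. No cytosolic gene was called then. At 4 h 2688 of all 19775 genes had an unadjusted p under 0.05. So had 5 of 17 cytosolic genes, with GARS1 (0.21), SARS1 (0.21), CARS1 (0.17) and YARS1 (0.16) high and LARS1 (-0.25) low. With the mean of each gene's probe sets 3 were called, and without probe sets of several transcripts 1. MARS2 was the 1 mitochondrial gene called at 4 h, with 105, 92.6 and 107 in DMSO and 139.6, 136 and 121 in MLN4924 (log2 change 0.30, SE 0.084, adjusted p = 0.0464). At 8 h its groups overlapped again (-0.031). Its 4 h call was lost in 10 of 15 alternatives, among them the fit with the replicate number as a block (adjusted p = 0.063) and 5 of 6 fits without 1 array (0.0725 to 0.216 among those lost). An F test of any change over the 5 times called 12 of 17 cytosolic genes (70.6%) and 5 of 15 mitochondrial genes (33.3%), against 32.6% of all genes. FARSA, HARS1 and VARS1, called at 24 h, did not pass it (adjusted p = 0.0663, 0.161 and 0.0878).

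Whether the effect grew from 8 to 24 h was tested directly as the difference of the effects. It was larger at 24 h for 8 of 17 cytosolic genes and smaller for none, against 19.5% of all genes called in this comparison (8.21% higher and 11.2% lower). SARS1 grew by 1.13 (SE 0.10, adjusted p = 1.29e-08), FARSB by 0.86, FARSA by 0.77, YARS1 by 0.71, AARS1 by 0.59, GARS1 by 0.53, LARS1 by 0.50 and TARS1 by 0.24 on the log2 scale. FARSA and LARS1 grew from values below 0 at 8 h. Both conditions enter this difference. From 8 to 24 h the mean GARS1 signal went from 2418 to 1864 in DMSO and from 3376 to 3789 under MLN4924. That of TARS1 went from 2252 to 1976 in DMSO and from 2612 to 2718 under MLN4924. For SARS1 the means were 896 and 857 in DMSO and 1115 and 2369 under MLN4924. The change within either condition from 8 to 24 h was not tested. NARS1 and IARS1 moved by -0.061 and 0.013 and did not pass (95% intervals -0.23 to 0.11 and -0.14 to 0.17). Of the mitochondrial genes, MARS2 (0.59) and HARS2 (0.31) grew, while WARS2 (-0.59) and IARS2 (-0.25) went down. The WARS2 effect, above 0 at 8 h and measured below 0 at 24 h, thus differed between the times (adjusted p = 0.00577). No member was called for 4 against 2 h (1 of 32 had an unadjusted p under 0.05) or 8 against 4 h (7 had), where 0.491% and 1.57% of all genes were. An unadjusted p under 0.05 was found for 1666 and 2498 of all 19775 genes in these comparisons. Alternatives ended the call of HARS2 in 15 of 20, of IARS2 and TARS1 in 11 of 20 and of LARS1 in 4 of 19, and that of FARSB without probe sets of several transcripts.

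The 24 h effect can be read from both sides, since each condition has its own 1 h arrays. From 1 to 24 h in DMSO, 5 cytosolic genes fell and 1 rose (of all genes 18.4% were called, 9.91% higher and 8.47% lower), with a class median of -0.10 against -0.0032 over all genes. GARS1 fell by 0.54 (SE 0.07, adjusted p = 4.32e-06), from 2849, 2492 and 2846 to 1908, 1866 and 1819. YARS1 fell by 0.42 (adjusted p = 2.62e-05), from 1830.2, 1664 and 1927 to 1293, 1324 and 1393. These were the clearest changes with time in solvent. TARS1 (fell by 0.25), FARSB (fell by 0.25) and NARS1 (fell by 0.17) fell less, and IARS1 rose (0.17). CARS2 fell by 0.31 (adjusted p = 0.0173) and IARS2 rose (0.27, adjusted p = 0.00243). GARS1 and YARS1 kept their calls in every alternative that measured them, 13 and 14 of them. The only probe set of GARS1 may hybridise to more than 1 transcript, so GARS1 was not measured in the alternative without such probe sets. The others lost theirs in at least 1: NARS1, IARS1 and CARS2 in 6 each (adjusted p up to 0.113, 0.666 and 0.163), FARSB in 3 (0.107), TARS1 in 2 (0.608) and IARS2 in 1 (0.0573).

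Under MLN4924, 13 of 17 cytosolic genes rose from 1 to 24 h and none fell (14.3% of all genes were called higher and 15.5% lower, 29.8% in either direction). The split differed between members. SARS1 rose by 1.45 under MLN4924 and moved by -0.10 in DMSO, so its 24 h effect lies almost wholly in the treated arrays. For AARS1 the values were 0.62 and -0.036. GARS1 rose by 0.52 under MLN4924 while it fell in DMSO by a like amount, and YARS1 rose by 0.76. NARS1 moved by 0.032 under MLN4924 (adjusted p = 0.761), so its difference at 24 h came with a lower control. IARS1 (0.38) and LARS1 (0.35) rose under MLN4924 and were also above their 1 h level in DMSO (0.17 and 0.26, the latter not called). In the mitochondrial set MARS2 (0.41), LARS2 (0.37), HARS2 (0.32), CARS2 (0.24) and NARS2 (0.22) rose and WARS2 (-0.35) fell over the same span. IARS2 moved by -0.13 under MLN4924 and was not called (adjusted p = 0.123). Several of these changes lost their call in some alternatives: HARS1 in 10 of 14, CARS2 in 9 of 14, VARS1 in 8 of 13, TARS1 in 7 of 14, LARS1, NARS2 and WARS2 in 3 each, and FARSA, FARSB and YARS1 in 1 each. That of YARS1 was lost without probe sets of several transcripts (0.16, adjusted p = 0.372). The direction turned for CARS2 with the mean of its probe sets (-0.024) and for FARSB without probe sets of several transcripts (-0.052, from 0.74). The 24 h comparison and the time courses share arrays and are not independent of each other.

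**Figure D5:**
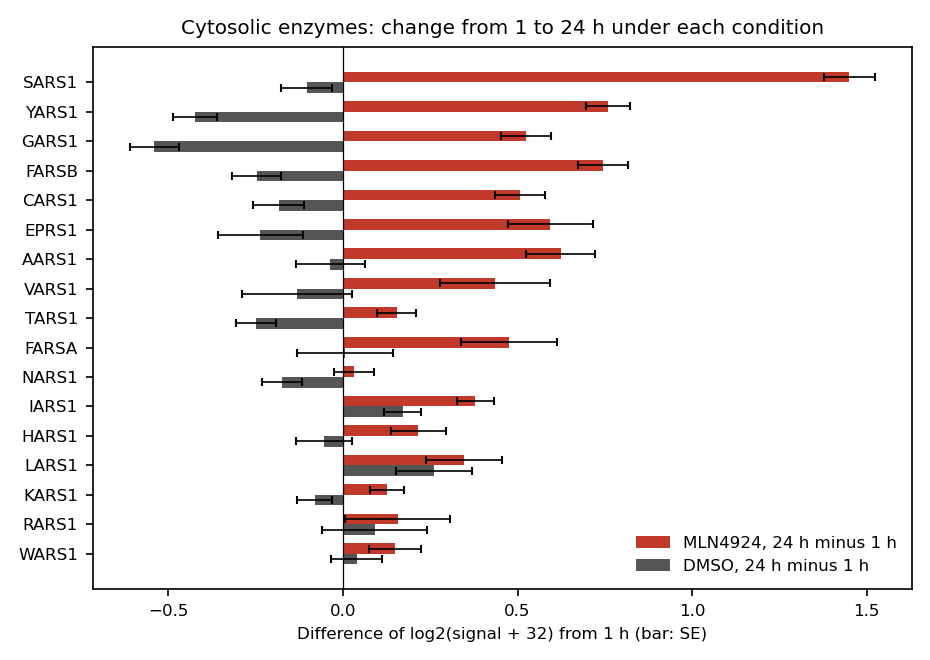
Change of each cytosolic gene from 1 to 24 h (difference of log2(signal + 32), bars from 0, error bars are the SE from the fit) under MLN4924 and in DMSO, ordered by the 24 h effect. All 17 MLN4924 bars are above 0; the GARS1 and YARS1 DMSO bars reach -0.54 and -0.42, while that of SARS1 is -0.10.

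All 67 probe sets with 1 member symbol were also tested one by one (adjusted over all 41097 such probe sets, of which 28.5% were called at 24 h and 11.6% at 8 h). At 24 h 26 of the 34 cytosolic probe sets rose and none fell, and of the 33 mitochondrial probe sets 5 rose and 3 fell. SARS1 (1.43 and 1.53) and YARS1 (1.18 and 1.07) had a pair of probe sets each with nearly the same change. The 4 of CARS1 all rose (0.66 to 1.62) and so did the 3 of EPRS1 (0.55 to 0.80). For LARS1, not called by its brightest probe set, 1 of 4 was called (0.43, adjusted p = 0.00065), and the others gave 0.11 to 0.23. At 8 h 11 cytosolic probe sets rose, and the dimmest probe set of LARS1 fell (-0.50, adjusted p = 0.045), its other 3 lying at -0.30 to -0.26 without passing. At 4 h 2 of the 34 cytosolic probe sets were called higher and none lower, where 3.39% of all genes were called. No mitochondrial probe set was called higher then, that of MARS2 included, and 1 was called lower. CARS2 was the member whose probe sets disagreed: the brightest rose at 24 h (0.37) while a dim one fell (-0.21, adjusted p = 0.033, mean signal 58.2; -0.31 at 8 h), and with the mean of its 5 probe sets the change was 0.12 (adjusted p = 0.221). WARS2's second probe set was called lower (-0.40, adjusted p = 0.0054), in the direction of the one not called. Averaging a gene's probe sets ended at least 1 call of CARS2, TARS1, VARS1 and WARS2 in the comparisons above, and leaving out probe sets of several transcripts ended calls of FARSB and YARS1 with a clear fall of the value.

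Genes around the synthetases were read from lists of related function. Of the AIMP scaffold only AIMP1 was measured, and it did not pass at 24 h (0.14, adjusted p = 0.105). Of 12 measured enzymes that act on transfer RNAs or on charged ones, 7 rose and 3 fell at 24 h (median 0.24), where 15.9% of all genes were called higher and 18.1% lower. DALRD3, a cofactor of transfer RNA methylation, fell by 1.09, and YRDC, which makes the threonylcarbamoyl precursor of a transfer RNA modification, rose by 0.77. All 3 measured mitochondrial amidotransferase subunits, QRSL1 (0.77), GATB (0.33) and GATC (0.38), which convert misacylated glutamyl transfer RNA into the glutaminyl form, rose. These 3 were singled out after their values were seen. Of 6 elongation factors 3 rose and none fell (median 0.23; 15.9% of all genes rose), led by the mitochondrial factors GFM1 (0.58) and TUFM (0.55).

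Of 9 genes that sense or answer uncharged transfer RNA and eIF2 phosphorylation, 4 rose and 2 fell at 24 h (median -0.00099), against 15.9% of all genes called higher and 18.1% lower, so the share that fell was near that of all genes. PPP1R15A, the stress-induced eIF2 phosphatase subunit, rose by 2.26, and EIF2S1, the alpha subunit of eIF2, by 0.97, whereas the eIF2 kinases EIF2AK3 (-0.79) and EIF2AK1 (-0.48) fell. The message of ATF4 itself was higher than in DMSO by 0.46 (adjusted p = 1.01e-06). In DMSO it changed by -0.47 from 1 to 24 h (adjusted p = 3.01e-06), so this difference came with a lower control. It was 1 of 4 genes of the 9 called lower with time in DMSO, against 8.47% of all genes. The message of the kinase EIF2AK4, which binds uncharged transfer RNA, did not pass at 24 h (-0.15, adjusted p = 0.734). Of 23 known ATF4 response genes outside the family, 1, 6, 11, 16 and 21 were called higher at 1, 2, 4, 8 and 24 h and none lower at any of these times, with a median of 1.13 at 24 h. Of all genes, 0.00506% and 0.551% were called in either direction at 1 and 2 h, and 1.83%, 8.37% and 15.9% were called higher at 4, 8 and 24 h. ATF3, a stress-induced repressor, rose by 4.98 and CHAC1, a glutathione-degrading enzyme, by 2.82. In DMSO from 1 to 24 h, 16 of the 23 fell and 1 rose, against 8.47% and 9.91% of all genes. By the chosen probe set of each gene, cytosolic synthetases were first called at 8 h, when 16 of these 23 were. The median change of the cytosolic synthetases at 24 h (0.45) was smaller than that of this list. The 23 did not all follow 1 course: from 8 to 24 h the effect was called larger for 16 and lower for 2. SLC7A11 was at 1.84 at 4 h and 1.21 at 24 h. Whether ATF4 acted on any of these genes was not tested. Of the 19 genes of this list with a promoter window, 7 (36.8%) held TGATGNAA.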

How the data were processed

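RNA of A375 cells was measured on 30 Affymetrix HG-U133 Plus 2.0 arrays, 3 per group, with groups read from the sample labels. The authors deposited 1 table of linear signal intensity per probe set. Per the submitters' processing notes the software was Affymetrix Expression Console; its algorithm, version and scaling were not given in the sources used here. Of 54675 probe sets, 41097 had 1 gene symbol in the platform annotation, 1801 several and 11777 none. Those with 1 symbol gave 19775 genes, each taken as its probe set with the highest mean, so that a value is that of 1 probe set and not of a whole gene. Signals were quantile-normalized and tested as log2(signal + 32) with limma 3.58.1 in R 4.3.3, with 1 mean per group over all 30 arrays and Benjamini-Hochberg adjustment over all genes within a comparison. The number of arrays limits the precision. The code was tested on simulated data. The alternatives were other scalings, pseudocounts, probe set choices, a filter on dim genes, fits of only the arrays compared, a replicate block and leaving out each array.

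Per-array values are given for up to 8 cytosolic and 5 mitochondrial members with the largest change at any time among those called, for members whose probe sets were called in opposite directions and for up to 5 members called with time in DMSO. IARS2 was added as the member called lower at 24 h. Of each related list the 2 largest called changes at 24 h are named, and others where a count turns on them. The members and lists were chosen with earlier results of these data known.

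Arrays that share a replicate number across groups did not deviate together (correlation of deviations -0.17 to 0.19, median 0.0054; for different numbers the median was -0.0015), so the numbers were not used as pairs. The highest correlation of 2 arrays of a group was 0.993, and no array was a copy of another.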

Additional observations from a re-analysis of the deposited data

Results flagged for a closer look

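The effect of MLN4924 differed between 8 and 24 h for 12 of the 32 measured synthetases by limma's test of the difference itself (adjusted p under 0.05, where 19.5% of all genes passed). On the log2 scale the effect at 24 h minus that at 8 h was 1.13 for SARS1, 0.86 for FARSB, 0.77 for FARSA, 0.71 for YARS1, 0.59 for AARS1, 0.53 for GARS1, 0.50 for LARS1 and 0.24 for TARS1 among the cytosolic genes. Among the mitochondrial genes it was 0.59 for MARS2, 0.31 for HARS2, -0.25 for IARS2 and -0.59 for WARS2. LARS1 and FARSA were below 0 at 8 h and above 0 at 24 h, and WARS2 was above 0 at 8 h and below 0 at 24 h. Changes of the DMSO arrays between 8 and 24 h enter these values as well as changes of the treated arrays. Groups of 3 arrays are too small to look for single arrays that stand apart.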

How the results depend on the processing

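Counts are of genes called by limma, beside the count reported. EPRS1, GARS1, IARS1, LARS1 and VARS1 have only probe sets that may hybridise to several transcripts, so they dropped out where those were removed. Without probe sets of several transcripts (which left 12 cytosolic genes measured) the cytosolic counts were 9 in place of 14 at 24 h, 5 of 8 for 24 against 8 h, 5 of 13 for MLN4924 from 1 to 24 h and 1 of 0 at 4 h, and the mitochondrial count for 24 against 8 h was 2 of 4. Fitting only the arrays compared gave 3 of 7 cytosolic genes at 8 h, 2 of 6 in DMSO from 1 to 24 h, and for mitochondrial genes 1 of 2 at 8 h, 1 of 2 in DMSO and 3 of 6 under MLN4924. Averaging the probe sets of each gene gave 3 of 0 cytosolic genes at 4 h, and 1 of 2 mitochondrial genes both at 8 h and in DMSO. Adding 1 to the signal left 2 of 4 mitochondrial genes for 24 against 8 h, and centring on the median left 1 of 2 in DMSO. The 1 mitochondrial gene at 4 h became 0 with 1 added, with only the arrays compared, with the signals as deposited, without probe sets of several transcripts and with the replicate block.

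Leaving out 1 array at a time gave 12 to 14 cytosolic genes at 24 h, 6 to 8 at 8 h, 6 to 9 for 24 against 8 h, 3 to 5 in DMSO and 8 to 11 under MLN4924, and for mitochondrial genes 0 to 1 at 4 h, 1 to 1 at 8 h, 0 to 1 for 8 against 4 h, 2 to 4 for 24 against 8 h, 1 to 3 in DMSO and 4 to 7 under MLN4924. Some counts reported with all arrays lie above these ranges. They are 6 cytosolic genes in DMSO, 13 under MLN4924 and 2 mitochondrial genes at 8 h. The cytosolic median minus the mitochondrial median was 0.38 at 24 h (0.27 to 0.38 with 1 array left out, 0.30 with the mean of probe sets, 0.28 without probe sets of several transcripts) and 0.15 at 8 h (0.10 to 0.19 with 1 array left out, 0.25 both centred on the median and as deposited). It kept its sign in all of these.

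The direction turned in 2 of 1038 alternative values of called single-gene changes: from 1 to 24 h under MLN4924, CARS2 was at -0.024 with the mean of its probe sets and FARSB at -0.052 without probe sets of several transcripts. In 151 others a call was lost and 885 kept theirs, and 33 of the 68 gene results were called in every alternative that measured the gene. The replicate block, whose numbers do not pair the arrays, ended the calls of MARS2 at 4 h (adjusted p = 0.063) and of CARS2 under MLN4924 from 1 to 24 h (adjusted p = 0.0532), and left 14 cytosolic calls at 24 h. The causes were not tested.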
